A study of Mus musculus with 106 samples.

Results

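The apelin receptor Aplnr and its peptide ligands Apela (also called Elabela or Toddler) and Apln (apelin) were followed in single cells of the mouse germ cell lineage. They are 3 of the 18193 genes that the array named by 1 gene symbol, and they were read by 5 probe sets: a pair each for Aplnr and Apela, and 1 for Apln. The genes were chosen by symbol with their levels in these cells already known, so every level and difference below is a description and no test was made on them.

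The apelin receptor is a cell-surface receptor that acts mainly through inhibitory G proteins. Both ligands are made as larger precursors, secreted, and cut to short active peptides. In the gastrulating embryo the receptor is a known feature of nascent and cardiac mesoderm. Work in zebrafish showed that Apela signals through it to guide the movement of mesendoderm and heart precursors, and mice lacking Apela or Aplnr show heart and vessel defects with incomplete penetrance.

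Every array measured 1 cell of a C57BL/6 mouse embryo after PCR amplification of its cDNA, and the cells made up 11 groups. Knockout cells (Blimp1-/-, carrying the transcript of the null allele and Oct4) numbered 20 at the Late-Streak/0-Bud stage (LS/0B) and 12 at the Early/Mid-Bud stage (E/MB). Prdm1 encodes Blimp1, a repressor of transcription that primordial germ cells (PGCs) need to form, and the null allele is carried in all cells of these embryos. All other cells were wild type. The lineage ran from 8 posterior epiblast cells at the pre-streak stage (PS; Oct4+, T+), through 7 PGC precursors at the Early/Mid-Streak stage (E/MS) and 17 at LS/0B (both Blimp1+, Oct4+), to 8 PGCs each at E/MB, at the early head fold stage (EHF) and at embryonic day 8.25 (E8.25), all Blimp1+ and stella+. Beside the lineage stood 4 Blimp1+ Hoxb1+ Oct4+ cells at E/MB, 4 more that the description places at EHF and the title at E/MB, and, at E/MB, 10 cells of posterior mesoderm (Blimp1-, Hoxb1+, Oct4+). Embryo and litter are not given in the labels, so a group is 1 sample here, and the SD over cells describes cells and not embryos. Amplification from a single cell loses rare transcripts, and absence cannot be read from a low signal.

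The marker lists ran with the group names, but not as independent support, since they hold genes used to choose the cells. These are Prdm1 and Dppa3 (stella) in the germ cell list and Hoxb1 in the mesoderm list. All 7 measured germ cell markers were above background in at least 1 cell of each PGC group, with a median of 7 markers per PGC, against medians of 1.5 to 5 in the other groups. Nascent and posterior mesoderm markers had a median of 1 of 7 per PGC at each stage and 7 of 7 per posterior mesoderm cell. Knockout cells at E/MB carried a median of 4.5 of these mesoderm markers. Group medians per cell were 0 to 2 of 8 for endoderm, 0 to 2 of 12 for blood and endothelium, 0 to 2 of 5 for trophoblast, 0 to 3 of 5 for allantois and 1 to 5 of 7 for posterior epiblast markers, the last highest in the epiblast cells. Of that last list, Dnmt3b, Otx2, Nodal, Pim2 and Utf1 were above background in 8 of 8 epiblast cells, Fgf5 in 1 and Pou3f1 in 0. Genes above background averaged from 6657 ± 514 per cell in posterior mesoderm (SD, n = 10) to 7434 ± 513 in knockout cells at LS/0B (SD, n = 20), with 7205 ± 525 in knockout cells (SD, n = 12) and 7063 ± 570 in PGCs (SD, n = 8) at E/MB and 7043 ± 631 in LS/0B precursors (SD, n = 17). Xist, the RNA that marks an inactive X chromosome, was above background in 8 of 8 epiblast cells, 8 of 17 LS/0B precursors, 5 of 8 PGCs at EHF and 1 of 4 cells in each Blimp1+ Hoxb1+ group, and in 0 cells of the other groups, knockouts included.

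The promoter windows of both ligand genes are shown because Apela differed between knockout cells and PGCs and Apln did so far less. The sequences are those of RefSeq on assembly GRCm38.p6, 5′ to 3′ on the strand of the gene, from 250 bases before to 50 bases after the gene's start. Capitals mark matches to an octamer-type motif, ATGCAAA, on either strand.

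Apela, chr8:65037287-65037586 (minus strand): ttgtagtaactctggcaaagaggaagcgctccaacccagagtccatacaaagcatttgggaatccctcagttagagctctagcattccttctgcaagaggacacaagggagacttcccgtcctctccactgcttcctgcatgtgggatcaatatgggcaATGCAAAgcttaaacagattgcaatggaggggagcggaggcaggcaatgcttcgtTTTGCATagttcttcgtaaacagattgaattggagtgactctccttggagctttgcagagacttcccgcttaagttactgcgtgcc

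Apln, chrX:48034804-48035103 (minus strand): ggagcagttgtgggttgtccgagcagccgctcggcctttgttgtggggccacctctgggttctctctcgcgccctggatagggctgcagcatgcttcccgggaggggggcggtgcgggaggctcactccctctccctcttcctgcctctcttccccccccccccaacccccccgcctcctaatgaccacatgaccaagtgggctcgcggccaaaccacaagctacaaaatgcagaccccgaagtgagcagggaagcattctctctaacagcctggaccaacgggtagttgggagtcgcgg

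The Apela window held the octamer-type motif at -91 to -85 on the strand shown and at -36 to -30 on the opposite strand, and its GC content was 49%. This motif was present in 4.63% of the 32851 promoter windows of the same length. The Apln window was richer in GC, at 64% against a mean of 53.8% over all windows. Neither window held a match, on either strand, to the Prdm1-type GNGAAAG (in 22.6% of windows), the T-box-type GGTGTGA (3.98%) or the GATA-type AGATAA (11.2%). The Apln window also held no octamer-type match. The 4 motifs were searched without regard to overlap, a match is a match of letters only, and no window for Aplnr was used here.

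Signals are the authors' linear array intensity. Means are of log2 signal after raising values below a background floor of 70.2 (6.13 in log2) to that floor. Above background means above a limit set in each cell, the 95th percentile of 126 probe sets for odorant, pheromone and taste receptors and hair keratin-associated proteins, which was 82.8 to 166 between cells.

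Aplnr, the receptor, was high in the knockout and mesoderm cells and at background in nearly all PGCs. In knockout cells at E/MB the signal was 4.21 at the lowest, 925 at the median and 3822 at the highest. It was above background in 11 of 12 of these cells, with a mean log2 signal of 9.83 ± 1.48 (SD over cells, n = 12). In knockout cells at LS/0B it ran from 1.71 through a median of 1340 to 3826, and 16 of 20 cells were above background (9.79 ± 2.04, SD, n = 20). Most knockout cells of both stages therefore carried the receptor transcript, and the 5 exceptions lay at the floor.

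Along the lineage, Aplnr was above background in many streak-stage precursors and in 1 of the 24 PGCs. Among epiblast cells it was above background in 1 of 8, with a signal of 580 in that cell, a median of 1 and a group mean of 6.51 ± 1.08 in log2 (SD, n = 8). E/MS precursors had signals from 3.61 through a median of 386 to 2771, and 6 of 7 were above background (9.16 ± 1.96, SD, n = 7). LS/0B precursors split into 8 cells with signals of 968 to 4685 and 9 cells at or below 41.3 (8.57 ± 2.71, SD, n = 17), with no cell in between.

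In PGCs at E/MB the highest Aplnr signal of 8 cells was 6.48, and at EHF it was 4.35. Both groups had 0 of 8 cells above background, for which an exact (Clopper-Pearson) 95% interval, covering counting error only, reached 36.9% of cells. At E8.25 the receptor was above background in 1 of 8 PGCs, at 3706, with a median of 1 over the group (6.85 ± 2.02, SD, n = 8). Without that cell the E8.25 mean stood at the floor, 6.13.

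Outside the lineage, the Blimp1+ Hoxb1+ cells at E/MB had Aplnr signals of 20.6, 1, 887 and 937 (7.98 ± 2.14, SD, n = 4). Those labelled EHF had 400, 879, 1427 and 12.9 (8.76 ± 1.91, SD, n = 4). Posterior mesoderm cells ran from 66.8 through a median of 1099 to 3199, with 8 of 10 above background (9.56 ± 1.93, SD, n = 10). Each of these groups thus held cells with the receptor above background and cells below it.

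**Figure D1:**
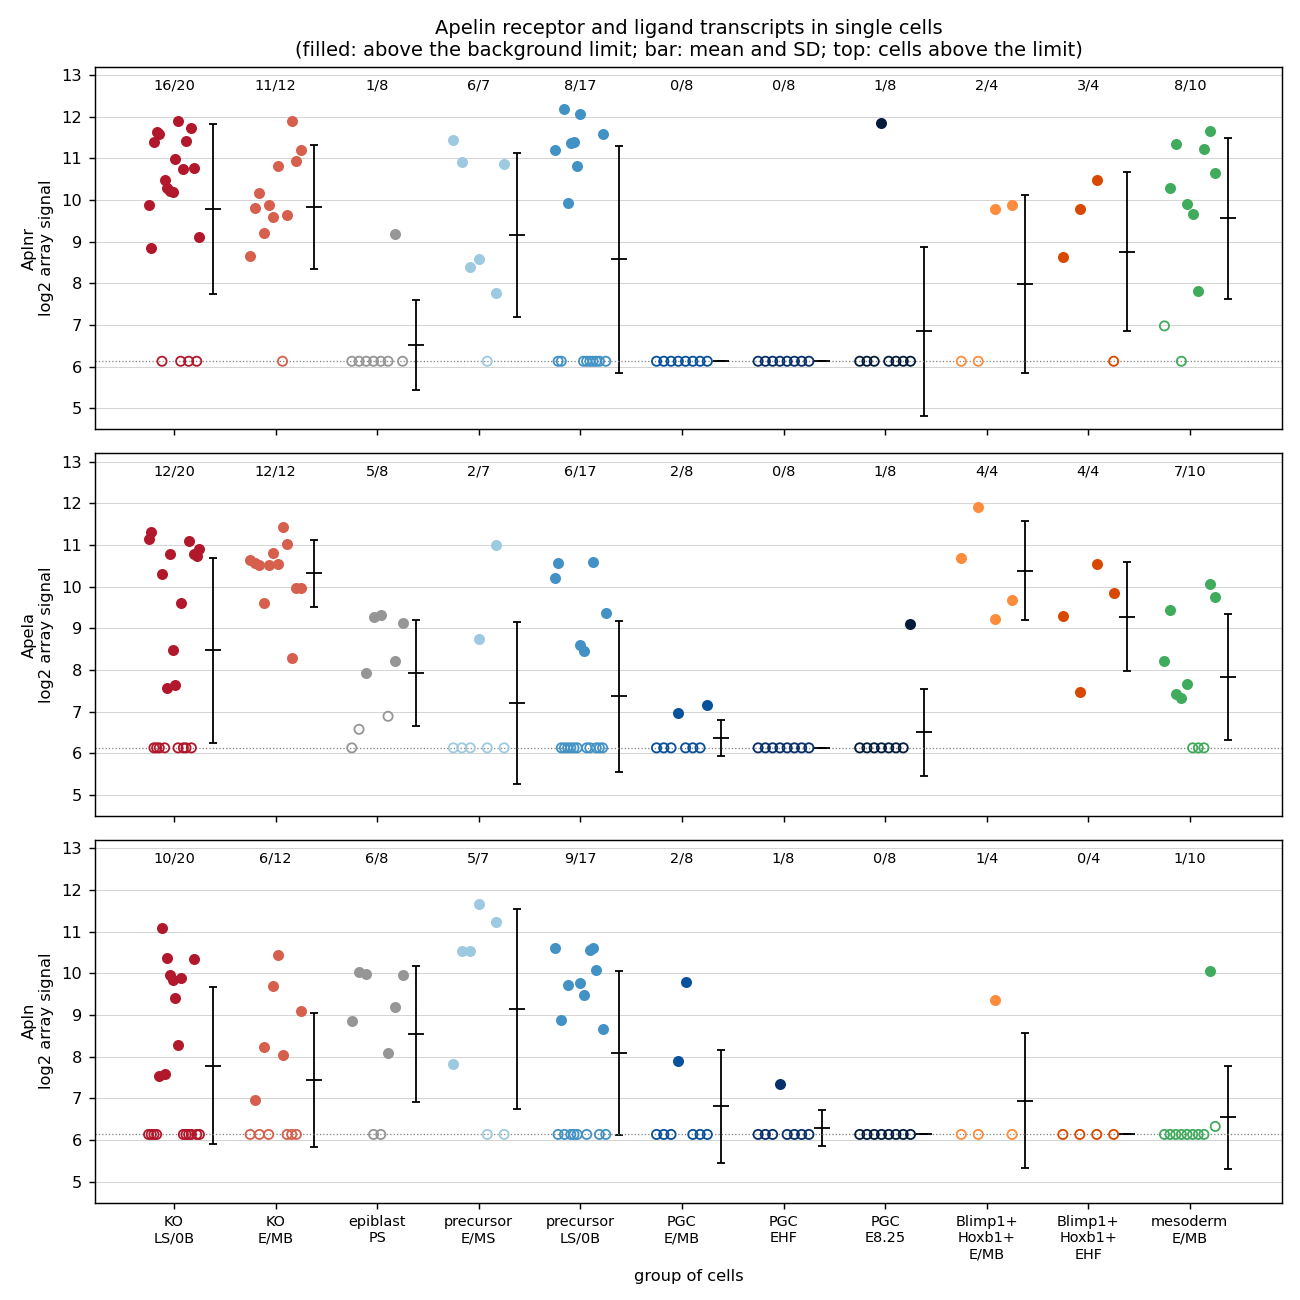
Log2 array signal (vertical axis) of Aplnr, Apela and Apln in each cell, by group (horizontal axis), with values below the floor of 6.13 (dotted line) drawn on it. Filled points lie above the background limit of their cell, open points below it, black bars give the group mean and SD over cells, and the numbers at the top count cells above the limit, such as 11/12 for Aplnr in knockout cells at E/MB and 0/8 in PGCs at E/MB.

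Ranked by mean log2 signal, Aplnr ran from the knockout cells of E/MB, then of LS/0B, through posterior mesoderm, E/MS precursors, Blimp1+ Hoxb1+ cells labelled EHF, LS/0B precursors, Blimp1+ Hoxb1+ cells at E/MB, E8.25 PGCs and epiblast to the PGCs at E/MB and EHF. No neighbours in this order differed by more than the SD of their cells. The widest gap, 1.13, lay between Blimp1+ Hoxb1+ cells at E/MB and E8.25 PGCs.

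Apela, the early embryonic ligand, was highest in the Blimp1+ Hoxb1+ cells and in knockout cells at E/MB. All 12 knockout cells at E/MB were above background, from 314 through a median of 1475 to 2736, with a mean log2 signal of 10.32 ± 0.80 (SD, n = 12). Knockout cells at LS/0B were more mixed, with 12 of 20 above background and signals from 1 through a median of 277 to 2530 (8.47 ± 2.22, SD, n = 20). The E/MB cells were thus all high with a narrow SD, while the LS/0B cells covered the whole range from the floor up.

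Along the lineage, Apela was above background in 5 of 8 epiblast cells, with signals of 1.59 to 637 and a median of 270 (7.93 ± 1.27, SD, n = 8). It was above background in 2 of 7 E/MS precursors, at 428 and 2062, with a median of 1 (7.20 ± 1.94, SD, n = 7). In LS/0B precursors it was above background in 6 of 17 cells, which had signals of 352 to 1553 (7.37 ± 1.81, SD, n = 17). Thus most streak-stage precursors of either stage had Apela at background.

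Among PGCs at E/MB, 2 of 8 cells had Apela just above their limits, at 125 and 143 (6.37 ± 0.43, SD, n = 8). Among PGCs at EHF, 0 of 8 had it above background and the highest signal was 2.56. At E8.25 1 of 8 PGCs had it, at 548 (6.50 ± 1.05, SD, n = 8). Low Apela was shared by all PGC groups.

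The 4 Blimp1+ Hoxb1+ cells at E/MB had Apela signals of 1656, 3879, 600 and 824 (10.38 ± 1.19, SD, n = 4). The 4 labelled EHF had 625, 177, 1489 and 914 (9.28 ± 1.31, SD, n = 4). All 8 were above background, and the lowest of them exceeded the 143 of the brightest E/MB PGC on the same probe set. Posterior mesoderm cells were intermediate, with 7 of 10 above background and signals from 1 through a median of 187 to 1072 (7.83 ± 1.51, SD, n = 10).

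The order of Apela means ran from Blimp1+ Hoxb1+ cells at E/MB and knockout cells at E/MB through Blimp1+ Hoxb1+ cells labelled EHF, knockout cells at LS/0B, epiblast, posterior mesoderm, LS/0B precursors, E/MS precursors and E8.25 PGCs to PGCs at E/MB and EHF. Its widest gap between neighbours was 1.04, between knockout cells at E/MB and Blimp1+ Hoxb1+ cells labelled EHF, within an SD of 1.09. The order of Apela means thus differed from that of Aplnr: epiblast cells stood at rank 5 of 11 for Apela and rank 9 for Aplnr.

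Apln, the second ligand and a gene of the X chromosome, was highest in the earliest groups of the lineage. Epiblast cells had signals from 5.60 through a median of 520 to 1046, with 6 of 8 above background (8.54 ± 1.63, SD, n = 8). E/MS precursors ran from 1 through 1482 to 3212, with 5 of 7 above background (9.15 ± 2.39, SD, n = 7). LS/0B precursors ran from 1.77 through 402 to 1568, with 9 of 17 above background (8.08 ± 1.96, SD, n = 17). From epiblast to late streak, therefore, each group had Apln above background in most of its cells.

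In PGCs, Apln was above background in 2 of 8 cells at E/MB (238 and 885), 1 of 8 at EHF (163) and 0 of 8 at E8.25 (highest 10.04). The group means were 6.81 ± 1.35, 6.28 ± 0.43 and 6.13 ± 0 in log2 (SD, n = 8 each). Knockout cells at LS/0B had it in 10 of 20 cells, with signals up to 2170 (7.78 ± 1.89, SD, n = 20). Knockout cells at E/MB had it in 6 of 12, with signals up to 1381 (7.44 ± 1.60, SD, n = 12).

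Apln was above background in few of the Blimp1+ Hoxb1+ and posterior mesoderm cells. It was above background in 1 of 4 Blimp1+ Hoxb1+ cells at E/MB (658), in 0 of 4 labelled EHF, and in 1 of 10 posterior mesoderm cells (1070). The order of means ran from E/MS precursors, epiblast, LS/0B precursors and the knockout cells of both stages through Blimp1+ Hoxb1+ cells at E/MB, PGCs at E/MB, mesoderm and PGCs at EHF to E8.25 PGCs and Blimp1+ Hoxb1+ cells labelled EHF, all neighbours within the SD of their cells. Among LS/0B precursors, X-linked Apln was above background in 5 of the 8 Xist-positive cells and in 4 of the 9 others.

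The first comparison set germ cell precursors at the early to mid streak against the epiblast they come from. Aplnr was 2.64 log2 units higher in E/MS precursors (6 of 7 cells above background) than in epiblast (1 of 8 cells). Apela differed by -0.73 and Apln by 0.60, both less than the SD over cells of either group. Of the 3 genes, 1 was higher by at least 1 log2 unit, the size used throughout as a statement of magnitude, against 2.48% of all genes higher and 2.67% lower by as much. Without E/MS replicate 6, Apela reached -1.36. Without replicate 5 or without replicate 7, Apln reached 1.11. All 8 epiblast cells and no E/MS precursor had Xist, so stage and Xist status cannot be told apart here.

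Between the streak stages, LS/0B precursors differed from E/MS precursors by -0.58 for Aplnr, 0.17 for Apela and -1.06 for Apln. Of the 3 genes, 1 was lower by at least 1 log2 unit, against 1.37% of all genes lower and 1.41% higher. The Apln value was as small as -0.65 without E/MS replicate 4, and it also came under 1 log2 unit in size without LS/0B replicate 2, 4, 6, 7, 8, 18, 22 or 24 or E/MS replicate 2, 3 or 6. Without E/MS replicate 5, Aplnr differed by -1.09. Xist marked 8 of the 17 LS/0B precursors and 0 of the 7 E/MS precursors, and with the Xist-positive cells left out the Aplnr difference turned to 0.32, while Apln differed by -1.44 and Apela by 0.13.

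PGCs at E/MB were then set against LS/0B precursors. All 3 genes were lower in the PGCs by at least 1 log2 unit, by -2.44 for Aplnr, -1.002 for Apela and -1.27 for Apln, against 2.56% of all genes lower and 2.72% higher. Aplnr was above background in 0 of 8 PGCs and 8 of 17 precursors. The Apela value sat on the size itself and came below it, down to -0.80, when any 1 of 12 cells was left out: PGC replicates 1, 2, 3, 5, 6 and 7, and precursor replicates 1, 2, 14, 16, 20 and 24. With Xist-positive cells left out, Apln differed by -0.90. The PGC steps that followed were small: from E/MB to EHF Aplnr differed by 0, Apela by -0.23 and Apln by -0.53, and from EHF to E8.25 the values were 0.72, 0.37 and -0.15. The Aplnr and Apela values of the last step each came from 1 cell.

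Among cells of the same stage, PGCs at E/MB were compared with posterior mesoderm, which lacks Blimp1 and shares Hoxb1 with the Blimp1+ Hoxb1+ cells. Aplnr in PGCs differed by -3.43 log2 units, with 0 of 8 cells above background against 8 of 10, and the background limit makes this at least 6.50-fold lower. Such a bound sets the brighter group's mean against the dimmer group's mean limit, or its signal where that is higher. Apela differed by -1.46 and Apln by 0.26. Of the 3 genes, 2 were lower by at least 1 log2 unit, against 3.55% of all genes lower and 7.99% higher.

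The mesoderm arrays stood apart in their spike-in hybridisation controls. Those 9 probe sets averaged 11.39 ± 0.33 in log2 in the mesoderm cells (SD, n = 10) and 9.97 ± 0.27 in all other cells (SD, n = 96), without overlap. Scaled to these controls, the differences of PGCs from mesoderm were -2.30 for Aplnr, -0.50 for Apela and 0.49 for Apln. Every comparison with the mesoderm cells carries this limit, and its part in the results was not tested.

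PGCs at E/MB differed from Blimp1+ Hoxb1+ cells at E/MB, which express Blimp1 but carry mesoderm transcripts, by -4.02 for Apela. On the probe set used the cells of the groups did not overlap, with 143 as the highest PGC signal and 600 as the lowest Blimp1+ Hoxb1+ signal. On the second Apela probe set they did, the highest signals being 339 in PGCs and 185 in Blimp1+ Hoxb1+ cells. A difference at least this large in size was seen for 0.033% of all genes, and the share of all genes without overlap is not given here. Aplnr differed by -1.85, which was -1.22 without Blimp1+ Hoxb1+ replicate 4. Apln differed by -0.13, which turned to 0.68 without Blimp1+ Hoxb1+ replicate 3, the only Xist-positive cell of that group. Of the 3 genes, 2 were lower by at least 1 log2 unit, against 5.1% of all genes lower and 4.86% higher.

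At the next stage, PGCs at EHF against the 4 Blimp1+ Hoxb1+ cells labelled EHF showed the same genes lower. Apela in PGCs differed by -3.15 log2 units, at least 5.32-fold lower, with 0 of 8 PGCs and 4 of 4 Blimp1+ Hoxb1+ cells above background. Aplnr differed by -2.63, at least 2.42-fold lower, with 0 of 8 and 3 of 4 cells, and Apln differed by 0.15. These values hold for the probe sets used. On the second probe sets, Aplnr was above background in 0 of these 4 Blimp1+ Hoxb1+ cells and Apela in 1. Averaging each pair gave -1.38 for Aplnr and -1.81 for Apela. Of the 3 genes, 2 were lower by at least 1 log2 unit, against 5.12% of all genes lower and 6.52% higher. The stage of the Blimp1+ Hoxb1+ cells rests on their description, which their title contradicts.

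The knockout comparisons set cells carrying the null transcript and Oct4 against wild-type cells of the same stage. At LS/0B, Aplnr was 1.21 log2 units higher in knockout cells (16 of 20 above background) than in wild-type precursors (8 of 17). Apela was 1.10 higher (12 of 20 against 6 of 17), and Apln differed by -0.30. A gain of at least 1 log2 unit was thus seen for 2 of the 3 genes, against 0.945% of all genes higher and 0.379% lower. No knockout cell had Xist and 8 of the 17 precursors did. Against the precursors without Xist alone, Apln differed by 0.07 and the Aplnr difference was 0.31, since 6 of those 9 cells carried the receptor against 2 of 8 with Xist. The Apela difference came below 1 log2 unit without any 1 of knockout replicates 1, 2, 9, 16, 18, 19 or 20, down to 0.95.

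At E/MB the knockout cells were set against PGCs of the same stage, also free of Xist. The PGCs were labelled stella+ and the knockout cells were not, so genotype and choice of cells cannot be told apart here. Hoxb1 was above background in 12 of 12 knockout cells and 0 of 8 PGCs. Aplnr was 3.70 log2 units higher in knockout cells, at least 6.23-fold, with 11 of 12 cells above background against 0 of 8. Apela was 3.95 higher, and on the probe set used the lowest knockout signal, 314, exceeded the highest PGC signal, 143. On the second Apela probe set the highest signals were 326 in knockout cells and 339 in PGCs. Apln differed by 0.63, with 6 of 12 cells against 2 of 8, and by 1.05 without PGC replicate 5. A gain of at least 1 log2 unit was thus seen for 2 of the 3 genes, against 3.69% of all genes higher and 3.37% lower. The measure of mesoderm markers moved with these values: the 7-gene list had a mean log2 signal of 8.39 ± 0.81 in knockout cells (SD, n = 12) and 6.64 ± 0.38 in PGCs (SD, n = 8), and its part in the result was not tested.

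The knockout cells at E/MB also differed from mesoderm. Aplnr stood at a similar level, with a difference of 0.27, while Apela was 2.49 log2 units higher in knockout cells and Apln 0.89 higher. Against Blimp1+ Hoxb1+ cells at E/MB the order was turned: Aplnr was 1.85 higher in knockout cells, Apela differed by -0.06 and Apln by 0.50. Between knockout stages, E/MB cells exceeded LS/0B cells by 1.85 for Apela, by 0.04 for Aplnr, and by -0.34 for Apln. Several of these comparisons share the PGC, knockout or mesoderm cells, so their values are not separate evidence.

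The receptor and its ligands were next counted cell by cell. Over all cells, Aplnr was above background in 56, Apela in 55 and Apln in 41. The receptor was joined by at least 1 ligand in 42 cells and stood alone in 14, a ligand without the receptor was found in 29 cells, and 21 cells had none of the genes. All 3 were present in 17 cells. Of the 24 PGCs, 18 had none of the genes, and none had the receptor together with a ligand.

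**Figure D2:**
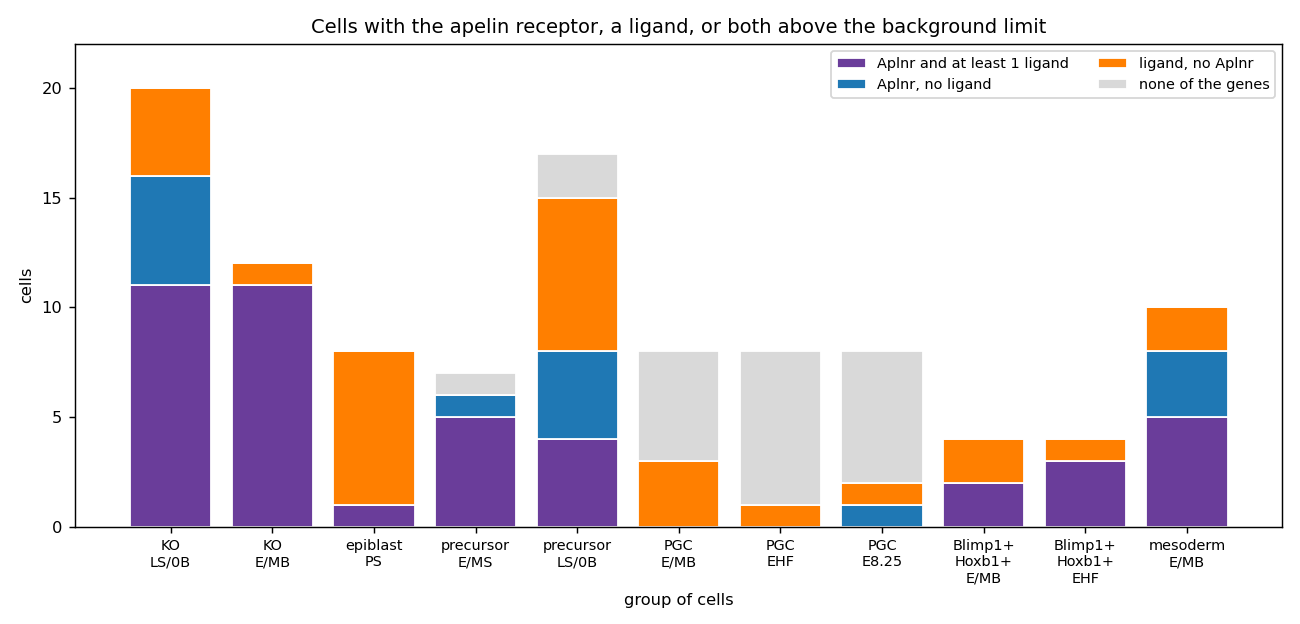
Number of cells (vertical axis) in each group (horizontal axis) with Aplnr and at least 1 ligand, Aplnr without a ligand, a ligand without Aplnr, or none of the 3 genes above the background limit. Knockout cells at E/MB show receptor and ligand in 11 of 12 cells, while 5, 7 and 6 of 8 PGCs at E/MB, EHF and E8.25 show none.

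Knockout cells at E/MB held receptor and Apela together in 11 of 12 cells, and the remaining cell, replicate 8, had Apela alone. At LS/0B, 8 knockout cells had both, 8 had Aplnr only, 4 had Apela only and 0 had neither. The LS/0B precursors had both in 2 cells, Aplnr only in 6, Apela only in 4 and neither in 5. Posterior mesoderm had both in 5 of 10 cells, Aplnr only in 3 and Apela only in 2. Across all cells the log2 signals of Aplnr and Apela had a Pearson correlation of 0.07, and across group means 0.58 (11 groups, sharing arrays and background), both given as descriptions.

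**Figure D3:**
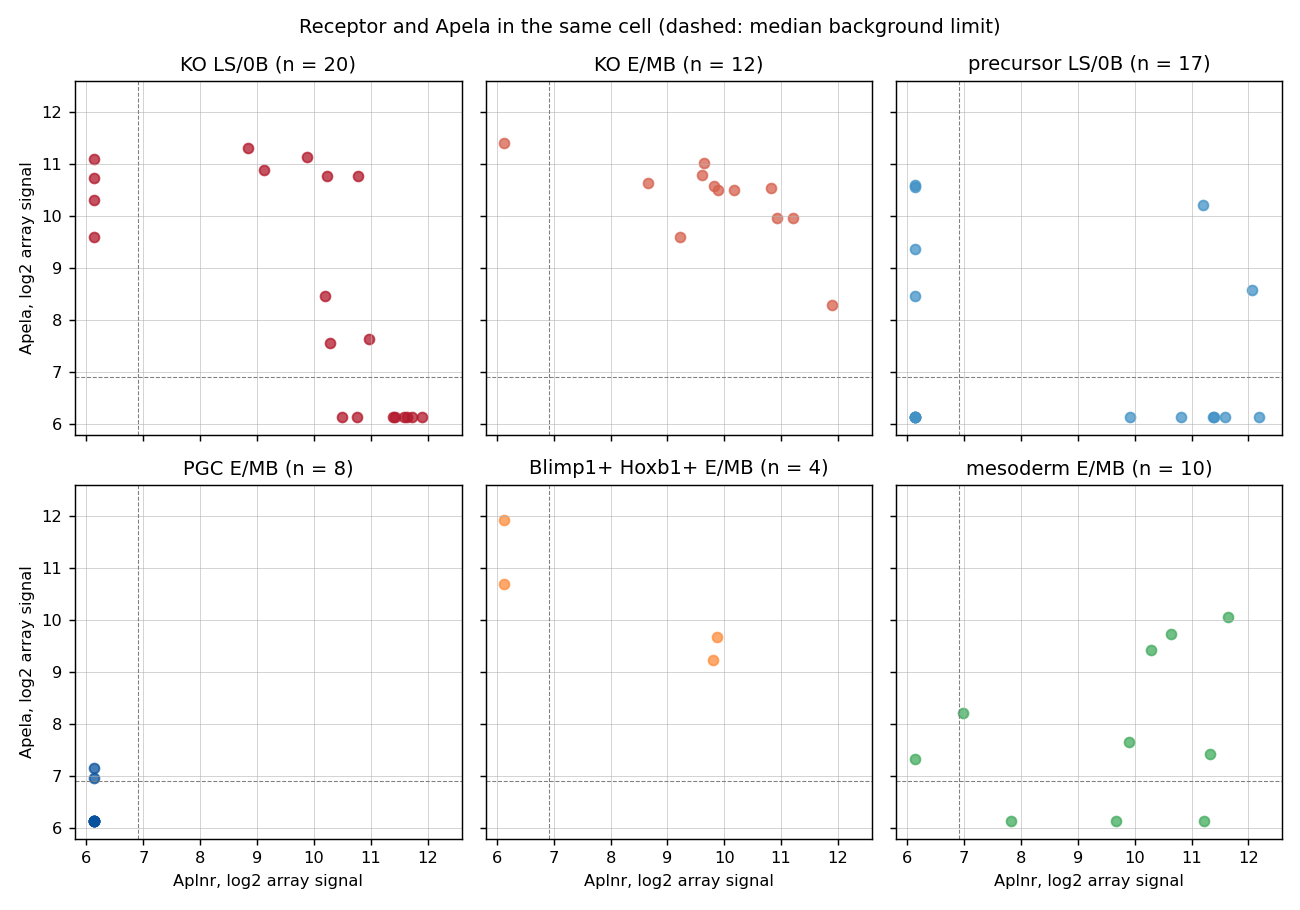
Log2 array signal of Apela (vertical axis) against Aplnr (horizontal axis) in single cells of 6 groups, with the median background limit dashed on both axes. In knockout cells at LS/0B 8 points lie in the upper right and 8 along the lower right, in knockout cells at E/MB 11 of 12 lie in the upper right, and all 8 PGCs at E/MB lie left of the receptor limit.

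Knockout replicate 8 at E/MB, the only cell of its group without Aplnr, carried 6 of the 7 measured germ cell markers, within the 1 to 6 of the other 11 cells. Epiblast Apela and Apln were found largely without the receptor: 7 of 8 epiblast cells had a ligand and no Aplnr. Among E/MS precursors the pairing was with Apln, since 5 of the 6 receptor-positive cells also had Apln and 2 had Apela.

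The split of the LS/0B precursors in Aplnr followed other genes of these cells, chosen here partly after their values were seen. Aplnr was above background in 0 of 8 precursors with Dppa3 (stella, a germ cell marker) and in 8 of 9 without. It was above background in 8 of 11 with the posterior mesoderm gene Hoxb1 and in 0 of 6 without. With Sox2, a pluripotency factor that returns in PGCs, the counts were 0 of 7 against 8 of 10. With Prdm14, another gene of the germ cell list, they were 2 of 11 against 6 of 6. The split was not seen at E/MS, where Aplnr was found in 2 of 3 precursors with Dppa3 and 4 of 4 without. There the counts were 2 of 3 against 4 of 4 for Sox2 and 3 of 3 against 3 of 4 for Hoxb1. Xist status was uneven between the LS/0B precursors. Among cells without Xist, Aplnr was found in 0 of 3 with Dppa3 and 6 of 6 without, and among cells with Xist in 0 of 5 and 2 of 3. All 9 cells without Xist had Hoxb1, 6 of them with Aplnr, and all 6 cells without Hoxb1 had Xist. Of the cells with Xist, Aplnr was found in 2 of 2 with Hoxb1 and 0 of 6 without, so Hoxb1 could be compared only among Xist-positive cells.

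The ligands did not follow the same split. Apela was above background in 4 of 8 LS/0B precursors with Dppa3 and 2 of 9 without, and Apln in 4 of 8 and 5 of 9. In knockout cells at LS/0B, which had Dppa3 in 0 of 20 cells, Apela was found in 7 of 7 cells with Sox2 and 5 of 13 without. Aplnr in the same knockout cells was found in 4 of 7 with Sox2 and 12 of 13 without. At E/MB, 4 of 12 knockout cells had Dppa3, and 3 of those 4 had Aplnr.

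The exceptional PGC at E8.25 with Aplnr at 3706, replicate 4, carried all 7 measured germ cell markers, with 5 to 7 in the other cells of its group. It also had 3 of 12 blood and endothelium markers above background, against 0 or 1 in the other 7 cells. These were Kdr, a receptor for vascular endothelial growth factor, at 554, Etv2, a regulator of endothelial fate, at 298, and Tek, an angiopoietin receptor, at 524, and they are named after their values were seen. In the other E8.25 PGCs Kdr and Tek were above background in 0 cells and Etv2 in 1. The cell's second Aplnr probe set was also above background, at 236. The endothelial adhesion genes Pecam1 and Cdh5 were at the floor in every cell of all 11 groups. The part of these transcripts in the result was not tested.

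The levels rest on 1 probe set per gene, the brighter of each pair. For Aplnr, both probe sets were above background in 34 cells and only the brighter in 22, the dimmer was never above background alone, and the Pearson correlation of log2 signal over all cells was 0.80. For Apela, both were above background in 8 cells and only the brighter in 47, with a correlation of 0.41. The dimmer Apela probe set was brighter than its partner in 1 cell, a PGC at E/MB with 339 against 143. The means of Apela therefore depend on the probe set chosen more than those of Aplnr. Averaging the pair gave 2.02 for the Apela difference of knockout cells from PGCs at E/MB and 2.40 for that of Aplnr. At E/MB the dimmer Apela probe set alone averaged 6.50 in knockout cells, 6.42 in PGCs and 6.48 in Blimp1+ Hoxb1+ cells. The dimmer Aplnr probe set averaged 7.24 in these knockout cells and 6.13 in these PGCs. The large Apela differences at E/MB thus rest on 1 probe set, as does Aplnr above background in the Blimp1+ Hoxb1+ cells labelled EHF.

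**Figure D4:**
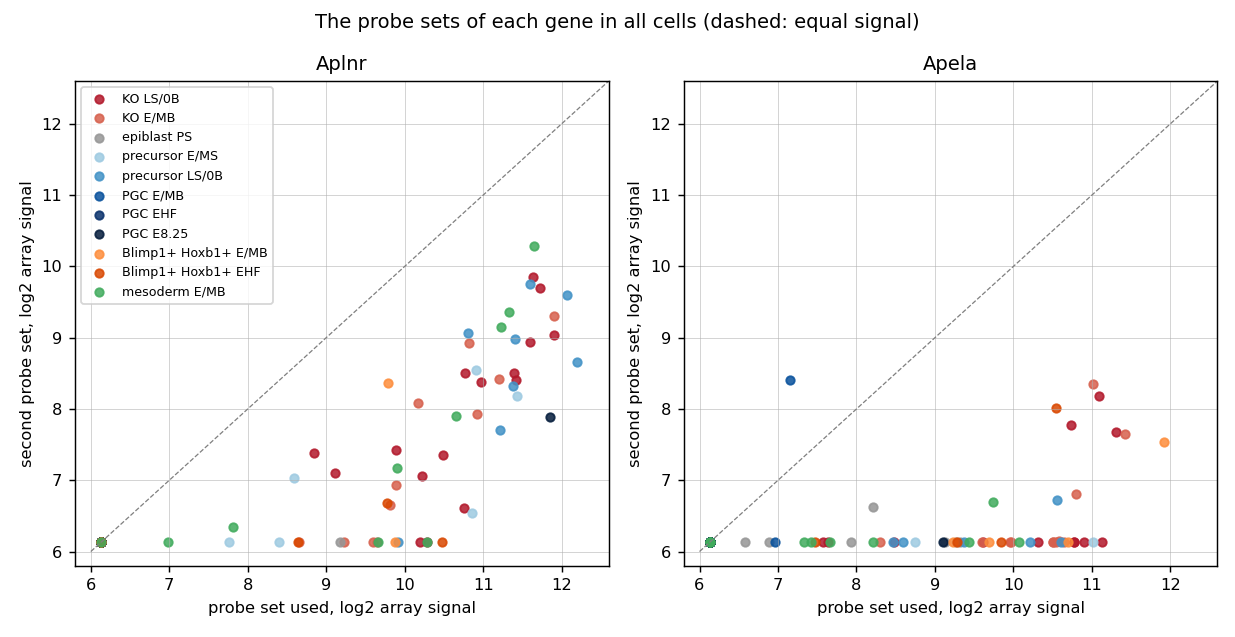
Log2 array signal of the dimmer probe set (vertical axis) against the one used (horizontal axis) in every cell, coloured by group, for Aplnr and Apela; the dashed line marks equal signal. Aplnr points climb together below the line, while most Apela points with high signal on the probe set used lie at the floor of the other, the used probe set alone being above background in 47 cells.

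The other genes of the pathway were counted from lists of ligand-cutting and ligand-degrading enzymes, G protein subunits, receptor kinases, arrestins, Rgs genes, related receptors and their ligands, chosen with results of these data known, of which 68 were measured. In knockout cells against PGCs at E/MB, 2 of the 68 were higher and 2 lower by at least 1 log2 unit, and at LS/0B, in knockout cells against precursors, 1 was higher and 0 lower. In PGCs at E/MB, 5 were higher and 1 lower than in mesoderm, 5 higher and 5 lower than in Blimp1+ Hoxb1+ cells, and 4 higher and 0 lower than in LS/0B precursors. In PGCs at EHF, 4 were higher and 7 lower than in the Blimp1+ Hoxb1+ cells labelled EHF. In E/MS precursors 3 were higher and 1 lower than in epiblast, and in LS/0B precursors 0 were higher and 1 lower than at E/MS. The share of all genes past this size in each comparison is given above.

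Of the proteases listed for cutting the ligand precursors, Furin and Mbtps1 were widely present, and the others were above background in 2 to 47 cells. Furin, the protease that processes both precursors, was above background in 86 cells, with group means between 7.56 and 9.33 in log2. Mbtps1, a related Golgi protease, was above background in 105 cells. Of the 7 measured proteases of this list, 2 were above background in at least 50% of the cells, and 0 differed by 1 log2 unit in knockout cells from PGCs or in PGCs from mesoderm. E/MS precursors exceeded epiblast in Pcsk7 (8.30 against 6.59) and Mbtps1 (10.37 against 9.05). Of the 5 measured peptidases of the ligand-degrading list, Ece2 was above background in 98 cells and Klkb1, plasma kallikrein, in 0, and 0 of the 5 passed 1 log2 unit in any of the 8 comparisons given with counts above.

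The transducers downstream of the receptor were present in the cells that lacked it. The inhibitory subunits Gnai2 and Gnai3, the stimulatory subunit Gnas and the beta subunits Gnb1 and Gnb2 were above background in every cell. Gnai1, another inhibitory subunit, averaged 8.52 ± 1.01 in knockout cells at E/MB (SD, n = 12) and 10.40 ± 1.17 in PGCs (SD, n = 8), and it averaged 8.29 ± 1.09 in mesoderm (SD, n = 10). Its lowest group mean was in epiblast, at 7.49 ± 1.54 (SD, n = 8), where Aplnr was also low. Of the 15 measured G protein subunits, it was the only one past 1 log2 unit in knockout cells against PGCs at E/MB and in PGCs against mesoderm. Gnai1, Gnb4 and Gna12 were higher in PGCs at E/MB than in LS/0B precursors by 1.69, 1.60 and 1.15.

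Among regulators of receptor signalling, Rgs16, which speeds the shut-off of inhibitory G proteins, was above background in 6, 7 and 8 of 8 PGCs at E/MB, EHF and E8.25. It was above background in 0 of 12 knockout cells at E/MB and 0 of 10 mesoderm cells. Arrb2, an arrestin that uncouples receptors from G proteins, averaged 8.55 ± 1.31 in PGCs at E/MB (SD, n = 8) and 6.72 ± 1.27 in mesoderm (SD, n = 10). Rgs5, a regulator known from pericytes, was at the floor in all 8 PGCs at EHF and averaged 9.19 ± 0.82 in the 4 Blimp1+ Hoxb1+ cells labelled EHF. Of the 6 measured receptor kinases and arrestins, 0 passed 1 log2 unit in knockout cells against PGCs at E/MB, and of the 11 Rgs genes 1 was higher and 1 lower.

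The streak and nascent mesoderm list and the cardiac and lateral mesoderm list held 26 measured genes. In knockout cells against PGCs at E/MB, 4 of 14 streak factors were higher and 2 lower by at least 1 log2 unit (list median 0.11). Of 12 cardiac and lateral factors, 4 were higher and 0 lower (list median 0.15). Of all genes, 3.69% were higher and 3.37% lower by as much. The median was 0 over all genes and 0.007 over genes above background in at least 50% of all cells. In PGCs against mesoderm the streak list had 2 higher and 7 lower (median -0.74) and the cardiac list 0 higher and 4 lower (median -0.04). Of all genes, 7.99% were higher and 3.55% lower, with a median of 0, and of 0.15 over the widely detected genes. In knockout cells against PGCs at E/MB, Mesp1, a factor of early cardiac and nascent mesoderm, was 2.46 log2 units higher, Snai1, a driver of mesenchymal transition, 1.93 higher and Isl1, a factor of second heart field and allantois, 2.23 higher. Nodal, a lower member of the streak list, averaged 6.18 in these knockout cells and 7.76 in these PGCs. Foxf1, a factor of lateral mesoderm, was 2.17 higher there and 1.76 higher in knockout cells than in precursors at LS/0B. In PGCs at E/MB against mesoderm, Mesp1 differed by -3.81, Snai1 by -3.39 and Mixl1 by -2.99, differences of the size seen for Aplnr. In E/MS precursors against epiblast, Mesp1 was 4.98 and Mixl1 3.50 higher.

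The genes whose 11 group means ran most like each member were ranked among 9736 genes, as a description over groups that share arrays. For Aplnr they were Igha (Pearson r = 0.93), Dcaf10 (0.92), Snhg6 (0.91), Tax1bp3 (0.90) and the T-box factor Tbx3 (0.90). Tbx3 was also the closest of the 5 across single cells, at 0.59, and was above background in 60 cells. Igha covered only 6.33 to 6.91 in group mean and so hardly varied above the floor. Running most opposite to Aplnr were Spry1, an inhibitor of receptor tyrosine kinase signalling (-0.93), and Tex101, a germ cell surface protein (-0.93), both highest in PGCs.

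For Apela the nearest genes were Mex3b, an RNA-binding protein (0.95), Pard3b, a polarity protein (0.95), Id2, an inhibitor of helix-loop-helix factors (0.94), the imprinted gene Mest (0.93) and Spin2c (0.93). All 5 had their highest group mean in Blimp1+ Hoxb1+ cells at E/MB, and Id2 was closest across single cells, at 0.61. Most opposite were Serf2 (-0.95) and Smarcal1 (-0.94). For Apln they were Pid1 (0.93), the protease gene Ctsc (0.93), Lars2 (0.93), 1110038B12Rik (0.92) and Eomes, a T-box factor of epiblast and streak (0.92), all highest in E/MS precursors. Most opposite were Srf (-0.97) and Sct (-0.92). No neighbour was shared between the members, and the correlation of group means was 0.27 between Aplnr and Apln and 0.05 between Apela and Apln.

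**Figure D5:**
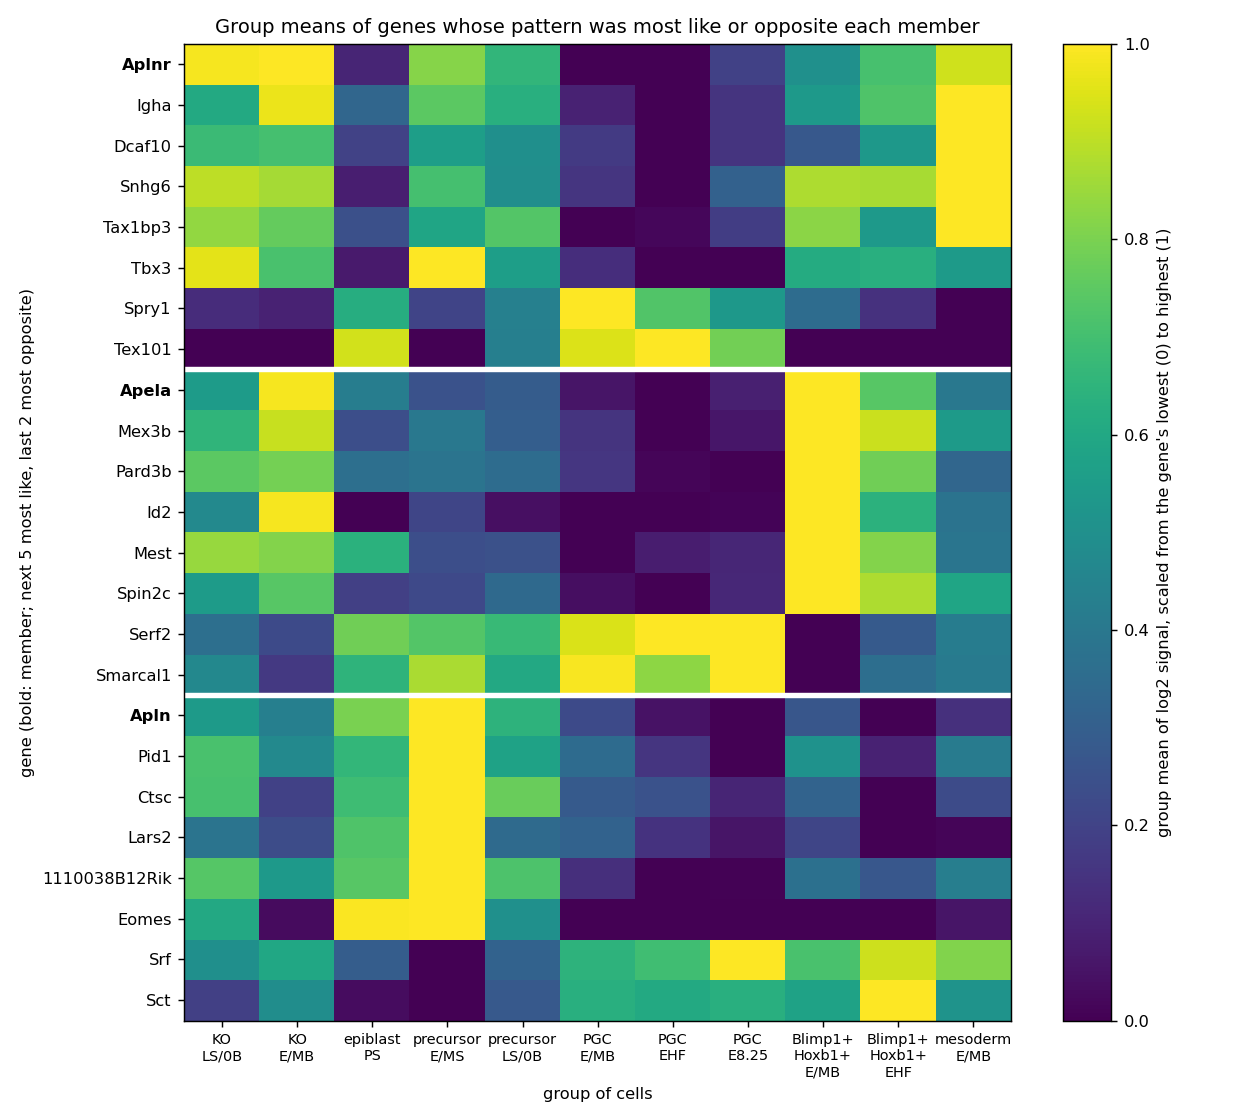
Group means of log2 signal for each member (bold), the 5 genes most like it and the 2 most opposite, scaled in each row from the lowest group mean (0) to the highest (1), over the 11 groups (horizontal axis). Aplnr and the genes like it are dark in the PGC groups at E/MB and EHF, Apela and those like it are bright in Blimp1+ Hoxb1+ cells at E/MB, and Apln and those like it in E/MS precursors.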

How the data were processed

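The authors deposited intensity on a linear scale for every probe set of every cell, made with MAS5 (per the submitters' processing notes). For its version and scaling the sources used here give nothing. Of the values, 15.3% stood at the minimum of 1 and 1 was missing. The array held 45101 probe sets: 64 controls, 34945 with 1 gene symbol, 932 with several and 9160 unnamed. Those with 1 symbol gave 18193 genes, of which 18145, all 3 members included, were found in the gene table of GRCm38.p6. A gene read by several probe sets was represented by that with the highest mean log2 signal. No pair of arrays was identical (0 pairs).

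The background floor was the median over cells of the 90th percentile of 126 probe sets with symbols beginning Krtap, Olfr, Tas2r, V1r, V2r or Vmn. The limit per cell was their 95th percentile (median 120), with the 99th (median 287) as a stricter one. Each group being 1 sample, no test was made and no standard error given in the 17 comparisons, of which 8 are given with counts. Differences are group means of floored log2 signal. Exact intervals cover counting error only. The few arrays per group limit precision. The labelled T gene was not among the genes used here.

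The members, gene lists, cell type markers and rules were chosen with earlier results of these data known. Named genes were the members, the genes used to choose cells, Xist, the cell type markers, the 5 most and 2 least similar genes of each member among genes above background in at least 50% of the cells of a group, and up to 3 members per list and comparison with differences of at least 1 log2 unit. Alternatives were other probe sets, floors, limits, scalings, cells without Xist and leaving out single cells, with 2 added after seeing the data: mesoderm without its far cell, and counts at the 99th percentile. The difference and ranking code was tested on simulated data. Python 3.11.15, numpy 2.4.6, pandas 2.3.3, scipy 1.17.1 and matplotlib 3.10.9 were used.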

Additional observations from a re-analysis of the deposited data

Results flagged for a closer look

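Among 24 combinations of gene and group with 4 to 10 cells, 6 held 1 cell whose gap to its nearest neighbour, relative to the range of its group, was above Dixon's 95% critical value. Some combinations had all cells at the floor and no spread, and so could not be flagged. These were Aplnr in PGCs at E/MB and EHF, Apela in PGCs at EHF, and Apln in PGCs at E8.25 and Blimp1+ Hoxb1+ cells labelled EHF. Chance alone flags about 1 in 20 groups, and in groups where most cells lie at the floor any single cell above it stands apart. For Aplnr these cells were epiblast replicate 7, at a signal of 580, and E8.25 PGC replicate 4, at 3706. For Apela it was E8.25 PGC replicate 8, at 548. For Apln they were PGC replicate 4 at EHF, at 163, Blimp1+ Hoxb1+ replicate 3 at E/MB, at 658, and posterior mesoderm replicate 9, at 1070. Without mesoderm replicate 9, PGCs at E/MB differed from mesoderm by -3.20 for Aplnr, -1.21 for Apela and 0.66 for Apln. Epiblast replicate 7 carried 5 of 7 epiblast markers, within the 5 to 6 of the other epiblast cells, and 1 of 7 nascent mesoderm markers, against 0 to 3 in the others.

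The second probe sets, which the levels do not use, also gave signal in the knockout cells at LS/0B. That of Aplnr was above background in 12 of 20 cells, against 7 of 17 precursors of the same stage. That of Apela was above background in 3 of 20 cells, against 0 of 17 precursors. In PGCs they were above background in 1 of 8 cells at E8.25 for Aplnr and 1 of 8 at E/MB for Apela.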

How the results depend on the processing

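None of the 15 differences of at least 1 log2 unit turned its sign under an alternative run on differences. For differences the probe sets of a gene were averaged, and the dimmer one alone was read for levels only. On the dimmer Apela probe set, PGCs at E/MB (6.42, 1 of 8 cells above background) stood above LS/0B precursors (6.17) and mesoderm (6.19). This is the reverse of the order on the probe set used. Of the smaller differences, 5 turned. With Xist-positive cells left out, Aplnr in LS/0B minus E/MS precursors turned to 0.32, Apln in PGCs minus Blimp1+ Hoxb1+ cells at E/MB to 0.68 and Apln in knockout cells minus precursors at LS/0B to 0.07. Apln in PGCs minus mesoderm turned to -0.16 without PGC replicate 5 and to -0.03 with no floor, and Apela in LS/0B minus E/MS precursors to at lowest -0.04 without any of 8 single cells. Without the floor, where values down to 1 enter the means, the differences of Aplnr were 8.47 (knockout cells minus PGCs, E/MB), -8.53 (PGCs minus mesoderm), -4.98 (PGCs minus Blimp1+ Hoxb1+ cells, E/MB), -7.43 (the same, EHF), -5.59 (PGCs minus LS/0B precursors) and 7.27 (E/MS precursors minus epiblast). Those of Apela were 7.91, -4.02, -7.97 and -8.96 in the first 4 of these comparisons. Averaging the probe sets gave 2.40 for Aplnr in knockout cells minus PGCs at E/MB, and for Apela 2.02 there, -2.04 in PGCs minus Blimp1+ Hoxb1+ cells at E/MB and -1.81 at EHF. Averaging also took Apela in PGCs minus mesoderm to -0.62, and in knockout cells minus precursors at LS/0B it took Aplnr to 0.75 and Apela to 0.66. A floor at the 95th percentile gave 0.96 for Aplnr and 0.91 for Apela in that last comparison. Median, quantile and hybridisation control scaling moved none of the 15 differences of at least 1 log2 unit by as much as the SD over cells, though the last took Apela in PGCs minus mesoderm to -0.50. Apela in PGCs minus LS/0B precursors came to -0.999, -0.976 and -0.94 under these scalings, in that order, and to -0.38 with the probe sets averaged.

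Leaving out 1 cell at a time gave ranges for Aplnr of 3.51 to 4.03 (knockout cells minus PGCs, E/MB), 1.06 to 1.44 (knockout cells minus precursors, LS/0B), -2.47 to -1.22 (PGCs minus Blimp1+ Hoxb1+ cells, E/MB), -3.50 to -2.05 (the same, EHF), -3.81 to -3.20 (PGCs minus mesoderm), -2.59 to -2.22 (PGCs minus LS/0B precursors) and 2.26 to 3.15 (E/MS precursors minus epiblast). For Apela they were 3.85 to 4.14, 0.95 to 1.30, -4.40 to -3.50, -3.75 to -2.73, -1.65 to -1.21 and -1.12 to -0.80 in the first 6 of these. For Apln they were -1.70 to -1.11 (PGCs minus LS/0B precursors) and -1.57 to -0.65 (LS/0B minus E/MS precursors), and the last of these came below 1 log2 unit in size without any of 12 cells, among them E/MS replicates 2, 3, 4 and 6.

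At the stricter background limit, 54 cells had Aplnr, 44 Apela and 33 Apln, and 35 had the receptor with a ligand. By group, Apela was then found in 0 of 8 PGCs at E/MB (2 at the main limit) and 3 of 10 mesoderm cells (7), and Apln in 3 of 12 knockout cells at E/MB (6) and 0 of 8 PGCs at EHF (1). In knockout cells at LS/0B, Apela was found in 9 of 20 (12), against an unchanged 6 of 17 precursors. Receptor and Apela together were found in 5 of these knockout cells (8). The alternative with Xist-positive cells left out could not be run for epiblast, where every cell had Xist. No paired analysis was possible because the labels give no embryo or litter for any cell. Signal over background limits mainly the calls of absence: 15.3% of values stood at the minimum, and 0 of 8 cells allows up to 36.9% of cells.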

Other observations

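Among the other peptide, chemokine and lipid receptors of the lists, 16 were measured and 7 were above background in no cell. S1pr2, a receptor for sphingosine 1-phosphate, had a pattern of detection near that of Aplnr: it was above background in 9 of 12 knockout cells and 0 of 8 PGCs at E/MB, in 8 of 10 mesoderm cells, and in 14 of 20 knockout cells against 6 of 17 precursors at LS/0B. Lpar4, a receptor for lysophosphatidic acid, averaged 7.53 ± 1.40 in PGCs at E/MB (SD, n = 8) and 10.69 ± 0.16 in Blimp1+ Hoxb1+ cells (SD, n = 4). F2r, the thrombin receptor, was above background in 96 cells and averaged 10.13 ± 1.12 in PGCs at E/MB (SD, n = 8) and 8.66 ± 1.73 in mesoderm (SD, n = 10).

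Cxcr4, the chemokine receptor that guides later migrating PGCs, was above background in 1 cell, while its ligand Cxcl12 was above background in every cell. The group means of Cxcl12 ran only from 8.36 to 8.88 in log2, and whether so even a signal came from transcript was not tested. Ackr3, another Cxcl12 receptor, was above background in 0 cells. Of the 8 measured ligands of these receptors, 0 differed by 1 log2 unit in any of the 8 comparisons given with counts.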
